A study of Mus musculus with 8 samples.

Results

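The miRNA mmu-miR-709 was followed in kidneys of db/db and control mice. It is 1 of 1881 mouse miRNAs on the array, and its row was chosen by its name, with its signal and its difference between the groups in these data already known. Its own values are therefore given as a description, with no test. Total RNA was prepared from kidney and labelled with Cy3, and 8 single-colour Agilent miRNA arrays were hybridised, 1 per sample. Of these, 4 held RNA of db/db males (strain label C57BLKS/J Iar -+Leprdb/+Leprdb) and 4 held RNA of control males (C57BLKS/J Iar -m+/m+), all 28 weeks old. The control titles read dbm while the source and strain labels read m/m, which leaves the presence of a db allele in the controls unsettled. The labels record no drug or diet for either group. They also do not state that each sample came from a separate animal, so the spread between arrays may be partly technical.

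The db/db mouse lacks a functional leptin receptor, becomes obese and diabetic, and is widely used as a model of kidney disease in type 2 diabetes. The mutation is present in every cell of the animal, so it models no single kidney cell type. miRNAs are short RNAs that guide Argonaute proteins to messenger RNAs with which they pair, mostly through a seed near the 5′ end, and lower the output of those messengers. miR-709 is a rodent miRNA. It is known for a nuclear role, in which it binds the primary transcript of miR-15a and miR-16-1 and hinders its processing. In kidney tubular cells it has been linked to mitochondrial damage after cisplatin through the mitochondrial transcription factor Tfam.

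The array measured miR-709 with 2 probes, shown here because they limit what the signal can tell apart. They are written 5′ to 3′ as the array design gives them and are complementary to the miRNA. The probes are nested, and the capital marks the base that only the longer one has.
A_54_P2098: tcctcctgcct
A_54_P2099: tcctcctgcctC
The shorter probe has 11 bases and the longer 12, and each sequence occurs in 1 probe of the array. Of the mature mouse miRNAs in RefSeq (GRCm38.p6) that share a run of at least 8 bases with the complement of the longer probe, 3 gave enough signal to be compared. They are shown because they could bind the same spots in part, and capitals mark the shared run.
mmu-miR-7082-5p: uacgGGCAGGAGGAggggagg
mmu-miR-6965-5p: agagggaggcuauugGGCAGGAGa
mmu-miR-1906: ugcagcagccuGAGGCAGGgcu
The run has 10 bases in miR-7082-5p and 8 in miR-6965-5p and in miR-1906. The miR-709 gene lies within the span of Rfx1, which encodes a transcription factor of the RFX family, on chromosome 8 in the RefSeq annotation.

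In all, 390 miRNAs were detected on 1 array or more, and 269 of them throughout. Between 305 and 352 were detected per control array and between 289 and 358 per db/db array. All arrays lay on 1 slide and shared 1 scan time. Control samples filled row 1 of the slide and db/db samples row 2, and the row and the genotype cannot be told apart. Of the 5 kidney epithelial marker miRNAs listed (miR-192-5p, miR-194-5p, miR-204-5p, miR-30a-5p and miR-10b-5p), 5 were detected on every array. The scanner software called miR-709 detected on all 8 arrays. Ordered by signal among the 269 miRNAs detected throughout, it stood at ranks 54 to 57 on control arrays and 66 to 74 on db/db arrays. Signals of different probes do not order the amounts of different miRNAs, so the label of an abundant miRNA was checked only this far.

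Kidneys of db/db mice gave less miR-709 signal than control kidneys on every array. Each array had been scaled to its own 75th percentile, taken over the 269 miRNAs detected throughout. Values of single arrays are given in the order of their replicate numbers. On the control arrays the scaled linear signal was 612, 600, 652 and 620. The db/db arrays gave 396, 358, 339 and 346. The lowest control array stood above the highest db/db array, and the 4 control values lay close together. The group means were 621 ± 22.2 and 360 ± 25.7 (SD, n = 4 each). On the log2 scale the control mean was 9.28 ± 0.05 and the db/db mean 8.49 ± 0.10 (SD, n = 4 each). The difference of db/db minus control was -0.79 ± 0.056 (SE), a signal 1.73-fold lower, and the gap between the groups was 0.60. Because these are bulk samples, fewer cells with the miRNA and less of it per cell cannot be told apart.

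**Figure D1:**
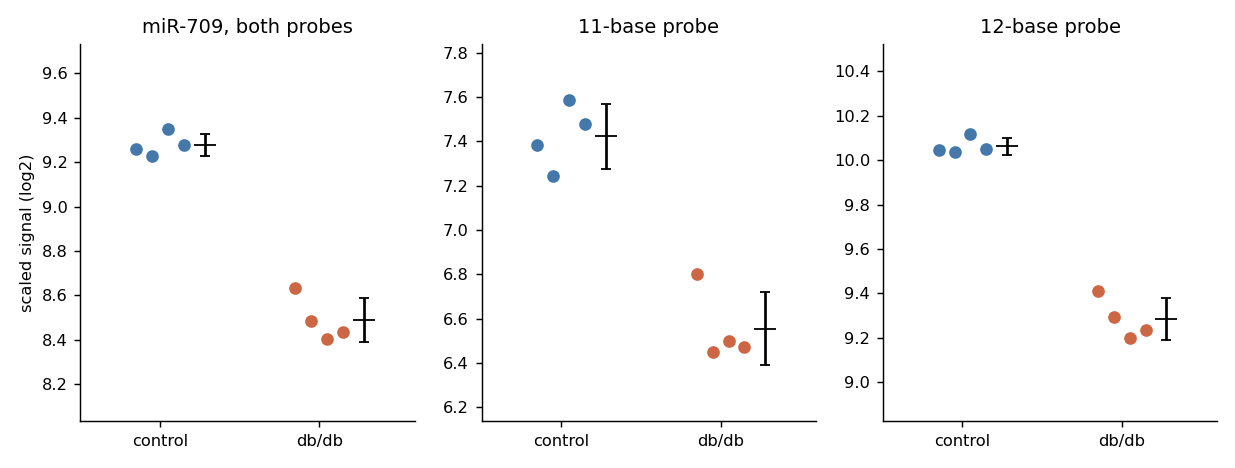
Scaled log2 signal of miR-709 on each of the 8 arrays (y axis, log2), for both probes averaged, for the 11-base probe and for the 12-base probe; points are arrays and bars give the mean ± SD of 4 arrays per group. In each panel all 4 db/db arrays lie below all 4 control arrays, from 8.40 to 8.63 against 9.23 to 9.35 for the averaged probes.

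The unscaled signals showed the same separation. They were 538, 569, 622 and 654 on the control arrays, against 437, 353, 358 and 358 on the db/db arrays. The scaling therefore narrowed the control group and left the order of the groups as it was. The 75th percentile signal that set the scaling was 338 to 406 on control arrays and 380 to 425 on db/db arrays. In the authors' deposited table, the ratios for miR-709 were 1.26, 1.33, 1.44 and 1.36 for the control arrays. The same authors' deposited table gave 0.793, 0.752, 0.752 and 0.717 for the db/db arrays. Again no db/db value reached a control value.

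To be tested, a miRNA had to be detected on every array of the control or of the db/db group. Among the 316 that were, 132 (41.8%) differed between the groups by limma with Benjamini-Hochberg adjustment, at an adjusted p under 0.05. Of all tested, 55 (17.4%) were lower and 77 (24.4%) higher in db/db kidneys. Higher miRNAs made up 58.3% of the calls. That share was 78.1% with no scaling, 82.0% with scaling to the labelling spike-ins, 46.6% with quantile normalization and 67.6% with the percentile taken over all miRNAs, where the number called fell to 34. Only 390 of the 1881 miRNAs were detected on any array, so the percentile over all miRNAs lay at the level of undetected signals. Without db/db replicate 2 there were 84 lower and 69 higher miRNAs, so that 45.1% of the calls were higher. The db/db arrays lay below every control array for 53 miRNAs (16.8%) and above every control array for 78 (24.7%). Lack of overlap, which miR-709 showed, was thus common on these arrays. By size, its decrease was the 9th largest of the 316. That rank moved with the signal used, from 3 with normexp to 14 with quantile normalization, 20 with the gene total signal and 36 in the authors' deposited table. In the reported setting it stood between miR-223-3p, a myeloid miRNA, at -0.83 and miR-132-3p, a miRNA induced by CREB signalling, at -0.75 on the log2 scale. The median change of all tested miRNAs was -0.02, and that of miR-709 relative to it was -0.77.

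The probes were read apart on 15 spots each per array, 240 spots in all. Of these spots 4 were marked as outliers and left out, none was saturated and all were well above background. For the 12-base probe A_54_P2099 the unscaled signal was 930, 994, 1061 and 1120 on the control arrays, against 752, 620, 620 and 624 on the db/db arrays. Its scaled log2 signal averaged 10.06 ± 0.04 in controls, against 9.28 ± 0.09 with db/db RNA (SD, n = 4 each). This is a difference of -0.78 ± 0.051 (SE), or 1.72-fold lower. For the 11-base probe A_54_P2098 the unscaled signal was 147, 144, 183 and 188 in controls and 123, 86.4, 95.5 and 92.1 in db/db kidneys. Its scaled log2 signal was 7.42 ± 0.15 and 6.56 ± 0.16 (SD, n = 4 each), a difference of -0.87 ± 0.11 (SE), or 1.82-fold lower. On both probes the groups did not overlap.

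The dimmer 11-base probe was also the noisier one. The coefficient of variation over its spots was 4.53% to 7.39% per array, against 1.41% to 3.38% for the 12-base probe. On this probe db/db replicate 1 stood apart at 6.80, while the other 3 db/db arrays lay between 6.45 and 6.50. The log2 signal of the 12-base probe minus that of the 11-base probe was 2.53 to 2.79 on control arrays and 2.61 to 2.84 on db/db arrays. The groups overlapped in this quantity, and it differed between them by 0.09 ± 0.076 (SE). Because both probes share the labelled RNA and 11 of their bases, they are not independent measurements.

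The size of the decrease depended on how arrays were made comparable, while its direction held in all of the settings plotted for miR-709. It was -0.66 with no scaling, -0.63 with scaling to the 4 labelling spike-ins and -0.68 after normexp background correction. With the gene total signal it was -0.79, with quantile normalization -0.74 and in the authors' deposited table -0.84, all on the log2 scale. Without scaling the median of all tested miRNAs itself moved to 0.10, and with the spike-ins to 0.14. These scalings move all miRNAs of an array alike, so the change of miR-709 relative to that median is -0.77 in both by construction. It was -0.68 relative to the median with quantile normalization and -0.61 with normexp. Leaving out 1 array at a time gave -0.85 to -0.76, the former without db/db replicate 2 and the latter without db/db replicate 3. Over the 18 alternatives checked for overlap, no db/db array reached a control array. The fit with the replicate number as a block is among them and leaves the signals as they were. The smallest gap was 0.03, with the percentile taken over all miRNAs, which lay at the level of undetected signals.

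**Figure D2:**
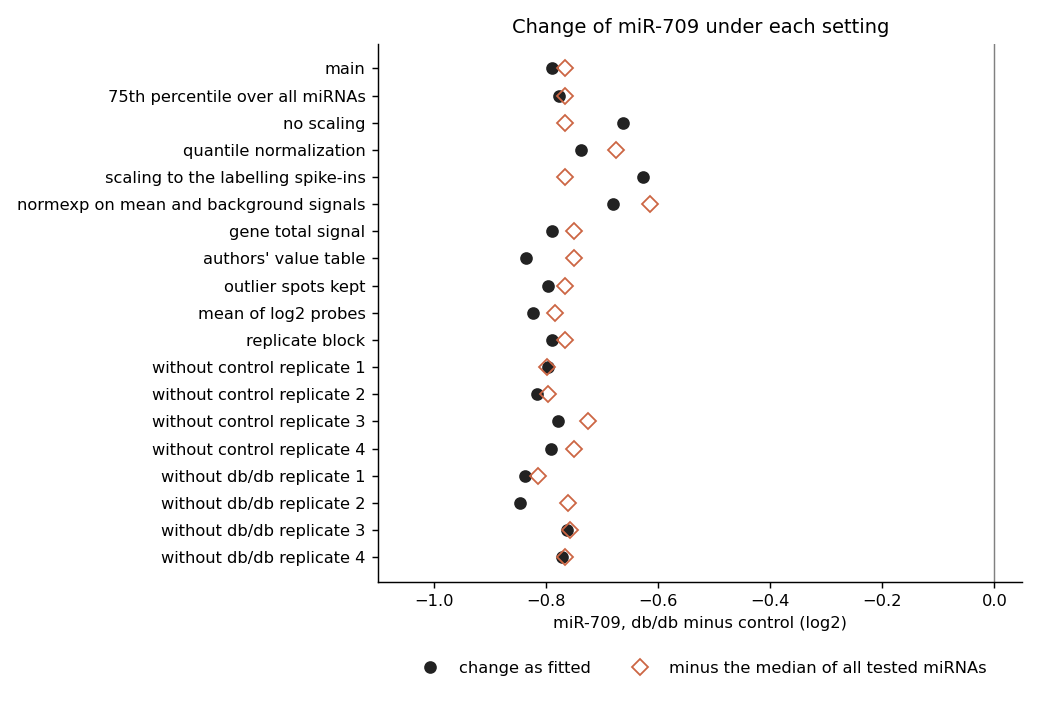
Change of miR-709 in db/db against control kidneys (x axis, log2) under each processing setting (y axis); dots are the change as fitted and diamonds the change minus the median change of all tested miRNAs. The setting called main is the one reported. Every dot lies below 0, between -0.63 with the spike-ins and -0.85 without db/db replicate 2.

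Leukocyte marker miRNAs were lower on the same arrays. All 5 of 5 leukocyte miRNAs listed (miR-142a-3p, miR-142a-5p, miR-150-5p, miR-223-3p and miR-146a-5p) were lower in db/db kidneys by limma with Benjamini-Hochberg adjustment, by -0.83 to -1.49 on the log2 scale, while 17.4% of all tested miRNAs were lower. Of the 5, miR-150-5p was detected on 1 of 4 db/db arrays and entered the test only through the control group. Their summed signal was 9.17 to 9.55 (log2) on control arrays and 7.86 to 8.42 on db/db arrays, and the groups did not overlap. Their part in the result for miR-709 was not tested. The 2 erythroid markers (miR-144-3p and miR-451a) were not called, and their summed log2 signal spread from 9.46 to 11.58 in controls and from 9.33 to 11.80 in db/db kidneys. The 2 endothelial miRNAs were not called, with adjusted p just above the threshold (0.0566 for miR-126a-3p and 0.0567 for miR-126a-5p, limma). Their summed log2 signal was 11.93 to 12.03 in controls and 11.83 to 11.89 in db/db kidneys, and the groups did not overlap. The 2 smooth muscle and pericyte miRNAs were not called either, and their sums overlapped (8.82 to 9.02 and 8.82 to 8.99). Of the 5 kidney epithelial miRNAs 3 rose, while 24.4% of all tested miRNAs were higher. The summed log2 signal of the 5 was 13.50 to 13.58 in controls and 13.66 to 13.72 in db/db kidneys. The liver miRNA miR-122-5p was detected on no control array and on all 4 db/db arrays, at 5.65 to 7.06 on the log2 scale. Of the 3 striated muscle miRNAs, miR-133a-3p and miR-206-3p were detected on no array, and miR-1a-3p rose by 0.37. The neuronal miR-124-3p was detected on no array, and miR-9-5p was not called.

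The profile of miR-709 over the arrays was compared with that of every other tested miRNA. Each profile was centred on its own mean, and likeness was the root mean square distance over the 8 arrays on the log2 scale. The nearest were miR-3095-3p at 0.121, miR-467f at 0.123, miR-132-3p at 0.125, miR-223-3p at 0.135 and miR-466q at 0.145. Of these, miR-3095-3p and miR-132-3p were detected on 3 of 4 db/db arrays and entered the comparison only through the control group. All but miR-223-3p were dim, with db/db means of 3.29 to 4.26 on the log2 scale, against 8.49 for miR-709. miR-223-3p is at the same time one of the leukocyte markers, and miR-467f and miR-466q belong to a large rodent cluster of miRNAs in the gene Sfmbt2. Their changes were -0.59, -0.59, -0.75, -0.83 and -0.66 on the log2 scale. With normexp these shrank to -0.18, -0.21, -0.19, -0.49 and -0.18. The normexp setting added an offset of 50 to every signal, which by construction shrinks the log2 changes of dim miRNAs most. In the authors' deposited table miR-3095-3p stood at -2.30, miR-132-3p at -2.06 and miR-467f at -0.93, and with the gene total signal miR-3095-3p stood at -1.34 and miR-467f at -0.89. The 5 were chosen for their likeness, so the values carry no test. The distance covers the step between the groups as well as the spread within them.

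**Figure D3:**
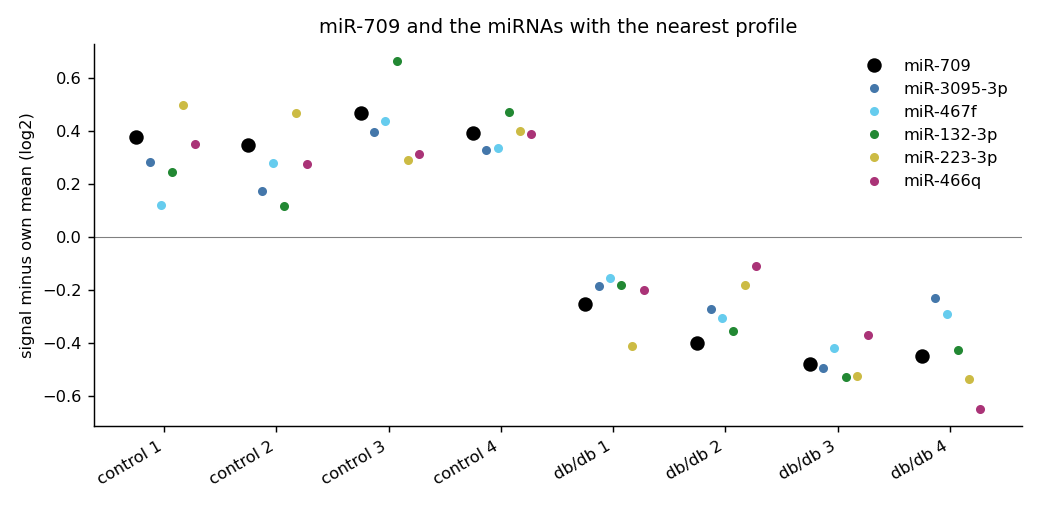
Log2 signal of miR-709 and of the 5 miRNAs with the nearest profile, each minus its own mean over the 8 arrays (y axis, log2), for each array (x axis); points are single arrays. All 6 miRNAs lie above their mean on the 4 control arrays and below it on the 4 db/db arrays, with distances to miR-709 of 0.121 to 0.145.

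Of the tested miRNAs sharing a sequence run with the probe complement, 2 fell and 1 was not called, while 17.4% of all tested miRNAs were lower. Of 13 miRNAs on the array that share a run of at least 8 bases with the complement of the longer probe, 3 were tested. For miR-6965-5p the scaled log2 signal was 5.49, 5.24, 5.20 and 5.28 on the control arrays, against 5.06, 5.07, 4.95 and 5.00 on the db/db arrays. It fell by 0.28 ± 0.07 (SE; adjusted p = 0.013, limma with Benjamini-Hochberg adjustment). For miR-7082-5p, whose shared run is the longest of the 3, the signal was 5.62, 5.41, 5.63 and 5.58 in controls and 5.38, 5.25, 5.37 and 5.37 in db/db kidneys. It fell by 0.22 ± 0.06 (SE; adjusted p = 0.020, same limma fit). miR-1906 was 4.80 ± 0.17 in controls, against 4.74 ± 0.10 with db/db RNA (SD, n = 4 each), with overlapping groups (adjusted p = 0.606, same limma fit). The list's median change was -0.22, against -0.02 over all tested miRNAs. Both calls were lost with no scaling (adjusted p = 0.144 and 0.49 in the limma fit), with the spike-ins (0.186 and 0.652), with the percentile over all miRNAs (0.807 and 0.908) and with no detection filter (0.114 and 0.136). That of miR-7082-5p was also lost without control replicate 4 (adjusted p = 0.0507). How much of the signal of one was read by the probes of another was not tested.

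Nuclear miR-709 is known to bind the primary transcript of miR-15a and miR-16-1, and the miR-15b/16-2 hairpins come from another transcript. Of 7 products of the miR-15a/16-1 and miR-15b/16-2 hairpins on the array, 3 were tested, with a median change of -0.01. Of the 3, 1 was lower and 1 higher, while 17.4% of all tested miRNAs were lower and 24.4% higher. miR-15a-5p, made only from the miR-15a/16-1 transcript, was 11.24, 11.32, 11.25 and 11.24 (log2) on the control arrays, against 11.23, 11.31, 11.24 and 11.24 on the db/db arrays. Its groups overlapped almost fully, and its change was -0.01 ± 0.04 (SE; adjusted p = 0.846, limma with Benjamini-Hochberg adjustment). miR-16-5p, made from both hairpins, fell by 0.19 ± 0.05 (SE; adjusted p = 0.024, same limma fit). Its log2 signal was 11.32, 11.27, 11.17 and 11.19 in controls and 11.05, 11.13, 10.95 and 11.07 in db/db kidneys. miR-15b-5p, from the other transcript, rose by 0.24 ± 0.05 (SE; adjusted p = 0.007, same limma fit), from 9.09 ± 0.04 to 9.32 ± 0.09 (SD, n = 4 each).

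The calls among the miR-15 and miR-16 products did not hold in every setting. That of miR-16-5p was lost with no scaling (-0.06) and with the spike-ins (-0.02), where its adjusted p in the limma fit was 0.529 and 0.725. It was also lost with the percentile over all miRNAs (0.962), with no detection filter (0.135), and on leaving out control replicate 2 (0.0531), the first db/db array (0.055) or the third (0.0592). The call of miR-15b-5p was lost with the percentile over all miRNAs (adjusted p = 0.842, limma), in the authors' deposited table (0.0591) and without db/db replicate 2 (0.0568).

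None of the tested miRNAs encoded near miR-709 was called. Within 1 Mb of its gene on chromosome 8, RefSeq places 11 miRNA genes, among them those of the miR-23a, miR-27a and miR-24-2 cluster and of miR-181c and miR-181d. Of their 19 mature miRNAs on the array 6 were tested, and none was called by limma with Benjamini-Hochberg adjustment, with 0 at an unadjusted p under 0.05, while 41.8% of all tested miRNAs were called. The changes ran from -0.13 for miR-181d-5p to 0.11 for miR-24-3p on the log2 scale, with a median of 0.04. miR-181c-5p was at -0.08, miR-23a-3p at 0.03, miR-27a-3p at 0.05 and miR-24-2-5p at 0.10. Their adjusted p in the limma fit lay between 0.104 for miR-24-3p and 0.509 for miR-23a-3p, and the groups overlapped for all 6. miR-24-3p, which is also made from a further locus elsewhere, was called higher in 6 of 21 alternatives, among them no scaling, quantile normalization, the spike-ins and normexp. Its change in the 6 ran from 0.08 to 0.27. miR-27a-3p was called higher, at 0.21, with the spike-ins alone.

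The miRNAs registered under neighbouring numbers, miR-689 to miR-720, also gave no call. Of 33 on the array, 4 were tested, with 0 called by limma with Benjamini-Hochberg adjustment and 0 at an unadjusted p under 0.05, against 41.8% called of all tested miRNAs. miR-690 was 7.87, 8.14, 8.85 and 9.28 (log2) on the control arrays, against 8.56, 7.86, 7.93 and 7.92 on the db/db arrays, a change of -0.47 with wide and overlapping groups (adjusted p = 0.268). Its change was -0.22 without control replicate 4 and -0.69 without control replicate 1. miR-700-3p changed by -0.14, miR-702-3p by -0.02 and miR-712-5p by 0.19 (adjusted p = 0.287, 0.855 and 0.287 in the limma fit), and the median of the 4 was -0.08. miR-700-3p was detected on 3 of 4 db/db arrays and entered the test only through the control group. It was called lower with quantile normalization, with the gene total signal and without db/db replicate 2 (-0.29, adjusted p = 0.0111, limma). In the authors' deposited table its change was -1.70, without a call. miR-712-5p was called higher with no scaling, with the spike-ins and without control replicate 1 (0.32, adjusted p = 0.00717, limma).

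Among guanine-rich miRNAs the shares called lay near those of all tested miRNAs. Of 117 on the array whose mature sequence is at least 50% G, 22 were tested, with 5 lower (22.7%) and 7 higher (31.8%), against 17.4% and 24.4% of all tested miRNAs. The median change was -0.11, against -0.02 over all tested. The 5 lower ones include miR-6965-5p and miR-7082-5p, which are also the called members of the list of shared runs. The largest decreases among those called were miR-6769b-5p at -0.54, miR-6965-5p at -0.28, miR-1224-5p at -0.28 and miR-7047-5p at -0.25. The adjusted p of miR-1224-5p (0.047) and of miR-7047-5p (0.046) in the limma fit lay just under the threshold. Their calls were lost in 12 and 11 of 21 alternatives. Both were lost without control replicate 3 or without db/db replicate 1, 3 or 4, and that of miR-1224-5p also without control replicate 1 (adjusted p = 0.0574 to 0.101 in these limma fits). With no scaling or with the spike-ins 1 of the 22 was lower, while 8.9% and 9.2% of all tested miRNAs were lower in these settings. Of the 7 higher ones, miR-7080-5p (detected on 1 of 4 control arrays and 4 of 4 db/db arrays) and miR-6975-5p (0 of 4 and 4 of 4) entered the test only through the db/db group, where they are high. They had to differ, and their calls count for nothing more than that detection. miR-3102-5p rose by 1.60 and miR-5126 by 0.77. The call of miR-5126 was lost with no detection filter (adjusted p = 0.0947, limma). That of miR-6769b-5p was lost with the percentile over all miRNAs (adjusted p = 0.194, limma). miR-3473b, the brightest of the list, had overlapping groups (-0.46, adjusted p = 0.285, limma), and its change was -0.25 without control replicate 4, -0.30 without control replicate 3 and -0.73 without control replicate 1.

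**Figure D4:**
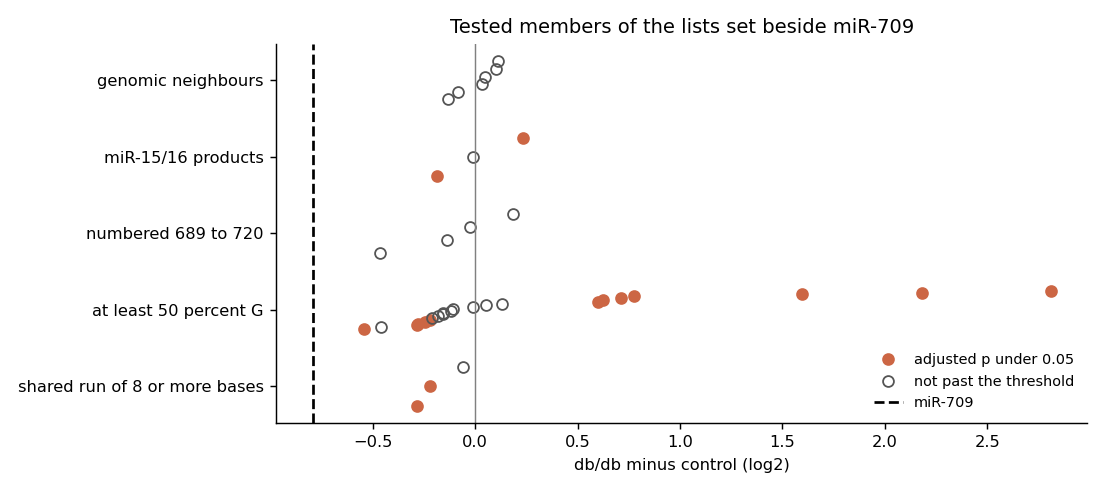
Change in db/db against control kidneys (x axis, log2) of the tested members of 5 lists (y axis); each point is 1 miRNA, filled where limma's adjusted p is under 0.05, and the dashed line marks miR-709 at -0.79. miR-6965-5p and miR-7082-5p are plotted both in the guanine-rich list and in the list of shared runs. No plotted member of the 5 lists lies at or below the line, the lowest being miR-6769b-5p at -0.54.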

How the data were processed

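The members and lists were chosen with earlier results of these data known. Spot intensity values were made by the authors with Agilent Feature Extraction, version 12.0.3.1 per the submitters' processing notes, and were read from the deposited scanner files. RNA (100 ng) was labelled with Cy3, per the labels' protocols. A linear ratio per miRNA and array was also deposited by the authors, with scale and direction read from the values. How its arrays were centred remains unknown. The medians were 1.11, 1.10, 1.10 and 0.980 for control arrays, against 0.857, 1.01, 0.994 and 0.947 for db/db arrays, in replicate order. These ratios served as an alternative only.

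Outlier spots were left out, and linear processed signals were averaged first per probe and next per miRNA. Arrays were scaled to their 75th percentile over the 269 miRNAs detected throughout, and scaled signals under 2.80 (1.48 on the log2 scale) were set to that floor. A miRNA entered the fit if detected on every array of the control or the db/db group, which 316 were. The fit used R 4.3.3 with limma 3.58.1 (functions lmFit and eBayes) and the package data.table, version 1.17.8. Tests were 2-sided, with Benjamini-Hochberg adjustment over all 316. The number of arrays limits the precision. The limma fit and the adjustment were tested on simulated log2 values, and the earlier steps were not.

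Lists were set by name, genome neighbourhood or sequence. Of the 1881 miRNAs on the array 1608 (85.5%) matched a mature sequence in RefSeq (GRCm38.p6), which was used for names, neighbours and sequences and for no coordinates, since the array design is on an older build. The mature sequence of miR-709 itself was missing from the sequences used. The list of shared runs therefore used the complement of the longer probe, and the planned search for a shared seed was not applied. Named were miR-709, the 5 miRNAs of nearest profile, all tested members of lists with up to 10 of them, and in larger lists up to 4 called ones in each direction and the 2 of highest mean signal. The alternatives were other scalings, signals, filters and fits, each probe alone, and leaving out each array in turn.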

Additional observations from a re-analysis of the deposited data

Results flagged for a closer look

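On the 11-base probe A_54_P2098, db/db replicate 1 lay apart from the other db/db arrays, at a scaled log2 signal of 6.80. Its gap to the nearest array was 0.861 of the group's range, above Dixon's 95% critical value for 4 samples. Chance marks about 1 in 20 groups in this way, and 8 groups were examined for miR-709 and its probes. Without this array the change of miR-709 was -0.84, and the groups still did not overlap.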

How the results depend on the processing

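The direction of the miR-709 change held in each of its 20 alternatives, among them the replicate block, which cannot move it. Its size moved by more than the spread between arrays, to -0.66 with no scaling, -0.63 with the spike-ins and -0.68 with normexp. The 12-base probe A_54_P2099 moved likewise, to -0.65 with no scaling and -0.61 with the spike-ins, and the 11-base probe A_54_P2098 to -0.70 with the spike-ins. Leaving out 1 array at a time gave -0.85 to -0.76 for miR-709, -0.95 to -0.81 for A_54_P2098 and -0.82 to -0.75 for A_54_P2099. The number of miRNAs called was 132, with a range of 114 to 153 without 1 array and 97 with no filter. It fell to 34 with the percentile over all miRNAs, set at the level of undetected signals, and the calls in the 5 fixed lists fell from 14 to 5. Same-numbered arrays had correlations of their deviations of -0.43, 0.41, -0.05 and -0.07, which is no consistent shared deviation. The labels do not say whether the numbers in the titles pair the samples. With the number in the titles as a replicate block, 144 were called, 12 of them in the lists. The change of miR-709 stays at -0.79 there by construction. The list of miRNAs with short probes was chosen after seeing the data and has no test. Its 9 members compared, with a longest probe of 12 bases or fewer as for miR-709, changed by -0.47 to 1.50 with a median of 0.60. Genotype and slide row cannot be told apart.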
